A study of Mus musculus with 16 samples.

Results

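The 10 genes described here, Rasef, Aadac, Slc15a5, Lpar3, Shisa6, Chodl, Bmpr1b, B3galt1, Map7 and Pla2g2e, were taken by symbol from the 23420 genes listed in every library. They had been chosen because their counts were low in wild-type adipocytes and far higher in adipocytes labelled as lacking Trib1. The adipocyte difference between genotypes is therefore given for them as a description, without a test, and the genotype difference in liver is the comparison that played no part in the choice. The count files hold polyadenylated RNA of 8 male C57BL/6 mice, with an adipocyte library and a liver library from each mouse, so that 16 libraries form 4 groups of 4. The groups began with adipocytes of mice labelled adipocyte-specific Trib1 knockout, freed with collagenase from subcutaneous fat (mice KO-1137 and KO-1139 at postnatal day 76, KO-1151 and KO-1152 at day 70). Adipocytes of mice labelled wild-type were prepared likewise (WT-1135, WT-1136 and WT-1138 at day 76 and, at day 70, WT-1153). Whole liver of the same 4 knockout-labelled and the same 4 wild-type mice made up the other groups. The labels name neither the driver that makes the knockout specific to adipocytes nor the deleted exons, and do not say whether the wild-type mice carried any engineered allele.

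Adipocytes store triglyceride and release fatty acids, and they answer hormones and local lipid and peptide signals through receptors on their surface. Tribbles 1, the product of Trib1, is a pseudokinase that brings substrates to the COP1 ubiquitin ligase, among them the transcription factor C/EBP alpha, a driver of adipocyte differentiation. The 10 genes share no single pathway. They encode a putative peptide transporter (Slc15a5), an esterase (Aadac), a secreted phospholipase (Pla2g2e), a glycosyltransferase (B3galt1), a pair of receptors (Lpar3, Bmpr1b), an atypical Rab GTPase (Rasef), a microtubule-binding protein (Map7) and a pair of membrane proteins known from neurons (Shisa6, Chodl).

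Total counts per library ran from 28560887 to 53716669. Levels are given as CPM, counts relative to the library total, scaled by the trimmed mean of M-values (TMM) separately in each tissue, with the SD over 4 mice. The targeted gene did not separate the labels. Trib1 lay at 1071 to 1408 CPM in knockout-labelled adipocytes and at 752 to 1293 CPM in wild-type adipocytes, a log2 change of 0.28 ± 0.18 (SE, adjusted p = 0.241, edgeR's quasi-likelihood test). The counts are per gene, and which exons were deleted is not stated, so the knockout stands here by its label. Across all genes, 4849 of 13795 tested genes (35.2%) passed an adjusted p of 0.05 in adipocytes, 2487 higher (18.0%) and 2362 lower (17.1%). Markers of several other cell types were lower in knockout-labelled adipocytes. The summed level of 8 endothelial markers was 179 to 399 CPM in knockout-labelled and 647 to 1865 CPM in wild-type adipocytes, and all 8 were called lower. The 7 mural cell markers, all called lower, summed to 104 to 170 CPM against 265 to 397 CPM, and the 8 fibroblast markers, 6 of them called lower, to 378 to 825 CPM against 875 to 1167 CPM. The 6 macrophage markers, none of them called, summed to 64.1 to 325 CPM in knockout-labelled and 142 to 299 CPM in wild-type adipocytes. The 12 adipocyte markers summed to 65776 to 73970 CPM in knockout-labelled and 47179 to 67749 CPM in wild-type adipocytes, with Retn, Lpl and Pparg called higher and none lower. In such bulk samples fewer cells of a type and less RNA per cell cannot be told apart.

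The levels of all 10 genes in knockout-labelled adipocytes lay above every wild-type level, as did those of 2579 of the 13795 tested genes (18.7%). For the 10 genes that separation goes with the low wild-type level and large rise that chose them. By fitted rise they ranked between 1 (Rasef) and 97 (Map7) among the tested genes, so other genes rose more than some of them. Most were not silent in wild-type adipocytes. Of the 10, 6 had counts in every wild-type library, 3 (Aadac, Bmpr1b and Chodl) were at 0 in 1 wild-type library each, and Rasef was the single one at 0 in all 4. The lowest knockout-labelled level was 4.59 times the highest wild-type level for Map7 and 28.0 times for Slc15a5, the ends of the range over the 9 genes with wild-type counts.

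**Figure D1:**
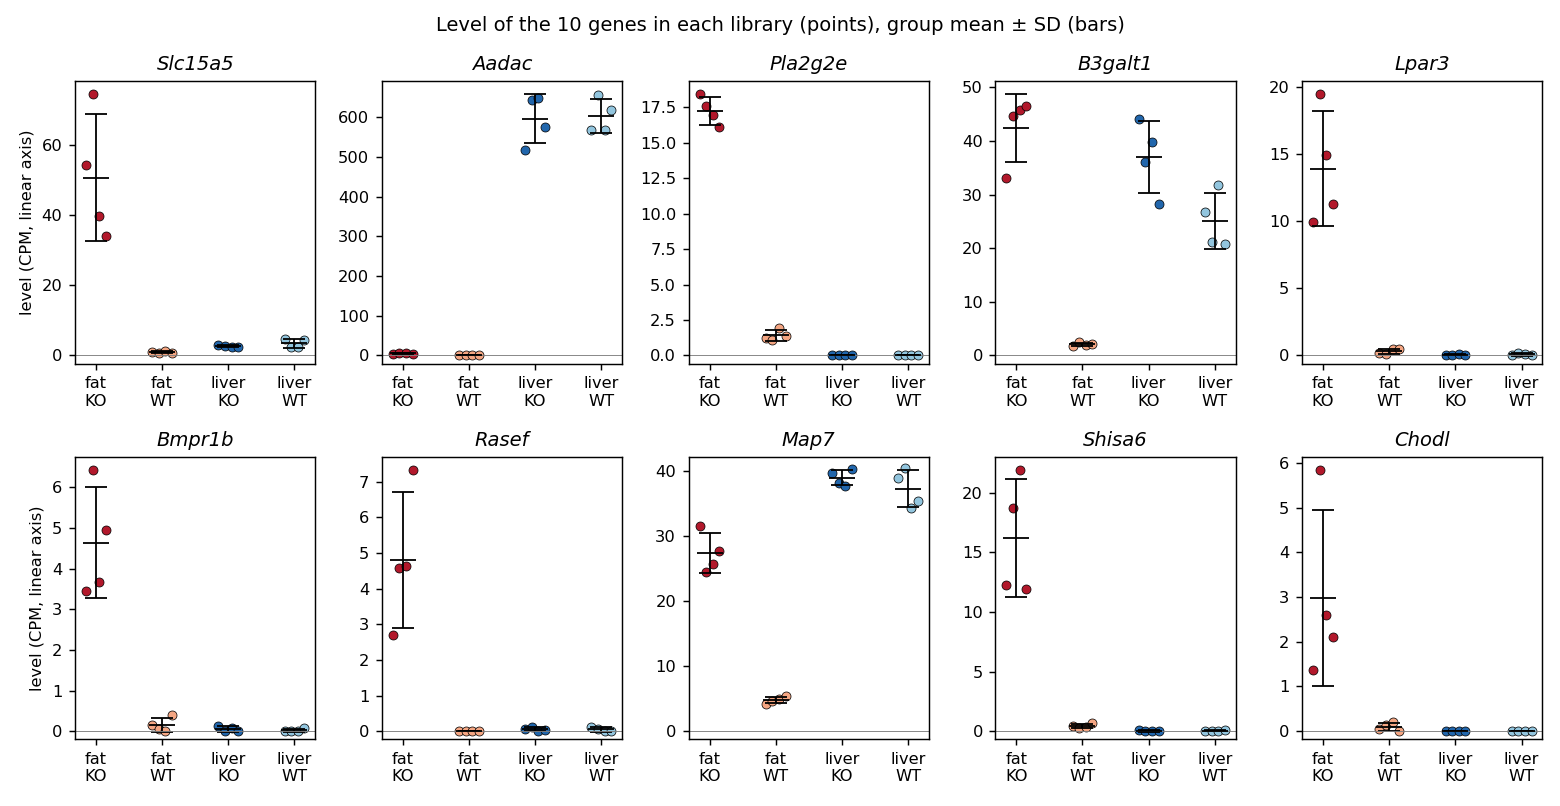
TMM-scaled CPM of each of the 10 genes in every library (points), on a linear axis, with the group mean and SD (bars). Knockout-labelled libraries stand left of wild-type ones in each tissue. All 10 genes lie higher in the 4 knockout-labelled adipocyte libraries than in the 4 wild-type ones, while in liver Aadac, Map7, B3galt1 and Slc15a5 are the ones with counts in every library.

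Slc15a5 is placed by its sequence in the family of proton-coupled oligopeptide transporters. Its level was 54.3, 74.6, 39.7 and 34.0 CPM in the knockout-labelled mice in the order of their numbers, lowest first, against 0.987, 0.799, 1.22 and 0.634 CPM in the wild-type mice in the same order. The means were 50.7 ± 18.1 and 0.909 ± 0.250 CPM (SD, n = 4 each), a ratio of 55.7. Both 76-day knockout-labelled mice stood above both 70-day ones. The gene occupies 96.3 kb of chromosome 6 on the minus strand (chr6:137983586-138079916, GRCm38).

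Aadac encodes arylacetamide deacetylase, an esterase of the endoplasmic reticulum best known from liver. It stood at 4.65, 6.35, 7.04 and 3.46 CPM in knockout-labelled adipocytes and at 0.0774, 0.0484, 0 and 0.195 CPM in wild-type ones, in the same order of mice. The 4 libraries of each group held 887 and 14 counts, and the ratio of means was 67.0. The groups were far apart, although 3 of the 4 wild-type libraries held some counts.

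Pla2g2e encodes a secreted phospholipase A2 that in mouse fat is known to be made by adipocytes under a high-fat diet. Its level was 18.4, 17.6, 16.9 and 16.1 CPM in knockout-labelled adipocytes and 1.20, 1.11, 1.97 and 1.36 CPM in wild-type ones. The 4 knockout-labelled libraries were closer to each other than for any other of the 10 genes. The means were 17.3 ± 0.986 and 1.41 ± 0.384 CPM (SD, n = 4 each), a ratio of 12.2.

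B3galt1 encodes a galactosyltransferase that adds galactose in beta-1,3 linkage to N-acetylglucosamine of glycan chains. Its level was 33.0, 44.7, 45.7 and 46.4 CPM in knockout-labelled adipocytes and 1.76, 2.47, 1.86 and 2.14 CPM in wild-type ones. KO-1137 was the low one of its group and still far above the wild-type mice. The means, 42.5 ± 6.34 and 2.06 ± 0.318 CPM (SD, n = 4 each), gave a ratio of 20.6.

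Both receptors followed. Lpar3, a G protein-coupled receptor for lysophosphatidic acid, was at 9.92, 19.4, 14.9 and 11.3 CPM in knockout-labelled adipocytes and at 0.174, 0.0969, 0.466 and 0.487 CPM in wild-type ones, a ratio of means of 45.4. Bmpr1b, a type I receptor for bone morphogenetic proteins (BMPs), was at 3.46, 6.43, 3.68 and 4.96 CPM in knockout-labelled adipocytes and at 0.155, 0.0484, 0 and 0.390 CPM in wild-type ones, a ratio of 31.2. For both receptors KO-1139 was the highest of the knockout-labelled mice and WT-1153 the highest of the wild-type mice. Bmpr1b had 768 counts over the knockout-labelled libraries and 26 over the wild-type ones, 16 of these in WT-1153. Without WT-1153 the fitted log2 change of Bmpr1b was 5.91 in place of 4.93.

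Rasef encodes an unusually large Rab GTPase with EF hands, calcium-binding folds. It had 762 counts over the knockout-labelled adipocyte libraries and none over the wild-type ones, with 2.70, 4.56, 4.64 and 7.33 CPM in the knockout-labelled mice. Low counts in these files were mostly even, so the limit for a count of 0 was set at 3 read pairs (6 counts) over the wild-type group. Against that limit the knockout-labelled level was at least 138-fold higher. Map7, which binds microtubules and recruits kinesin-1 to them, had the smallest ratio of the 10 genes. It stood at 31.5, 24.5, 25.7 and 27.7 CPM in knockout-labelled adipocytes and at 4.22, 4.58, 4.97 and 5.34 CPM in wild-type ones, a ratio of 5.73. An antisense gene, Gm48249, overlaps an exon of Map7 in the annotation, and since the strand setting of the counting is not given, its reads cannot be told apart from those of Map7.

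Shisa6 encodes a transmembrane partner of AMPA-type glutamate receptors in brain. Its level was 12.2, 18.7, 21.9 and 11.9 CPM in knockout-labelled adipocytes and 0.445, 0.266, 0.362 and 0.682 CPM in wild-type ones, a ratio of 36.9. Chodl encodes chondrolectin, a membrane protein with a C-type lectin domain that is known from motor neurons and muscle. It was at 1.38, 5.85, 2.59 and 2.11 CPM in knockout-labelled adipocytes and at 0.0387, 0.145, 0.207 and 0 CPM in wild-type ones. KO-1139 stood well above the other 3 knockout-labelled mice. The 4 libraries of each group held 510 and 16 Chodl counts, a ratio of mean levels of 30.5.

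Per kilobase of annotated exon, which allows levels of different genes to be compared, Pla2g2e and Slc15a5 led in knockout-labelled adipocytes with 18.8 ± 1.08 and 16.4 ± 5.87 CPM per kb (SD, n = 4). These neighbours in the order overlapped, since Slc15a5 ran from 11.0 to 24.2 CPM per kb. B3galt1 followed at 7.38 ± 1.10 and Lpar3 at 5.64 ± 1.73 CPM per kb, again with overlapping libraries. Aadac at 3.58, Map7 at 3.45 and Shisa6 at 1.60 to 2.94 CPM per kb came next. Aadac overlapped both Lpar3 and Map7, while all Shisa6 libraries lay below those of Map7 and above those of Rasef. Rasef (0.837), Bmpr1b (0.777) and Chodl (0.543 CPM per kb) stood last, and their ranges overlapped too. In wild-type adipocytes the order differed, with Pla2g2e at 1.54, Map7 at 0.602, B3galt1 at 0.358 and Slc15a5 at 0.294 CPM per kb, and the other 6 below 0.125 CPM per kb.

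**Figure D2:**
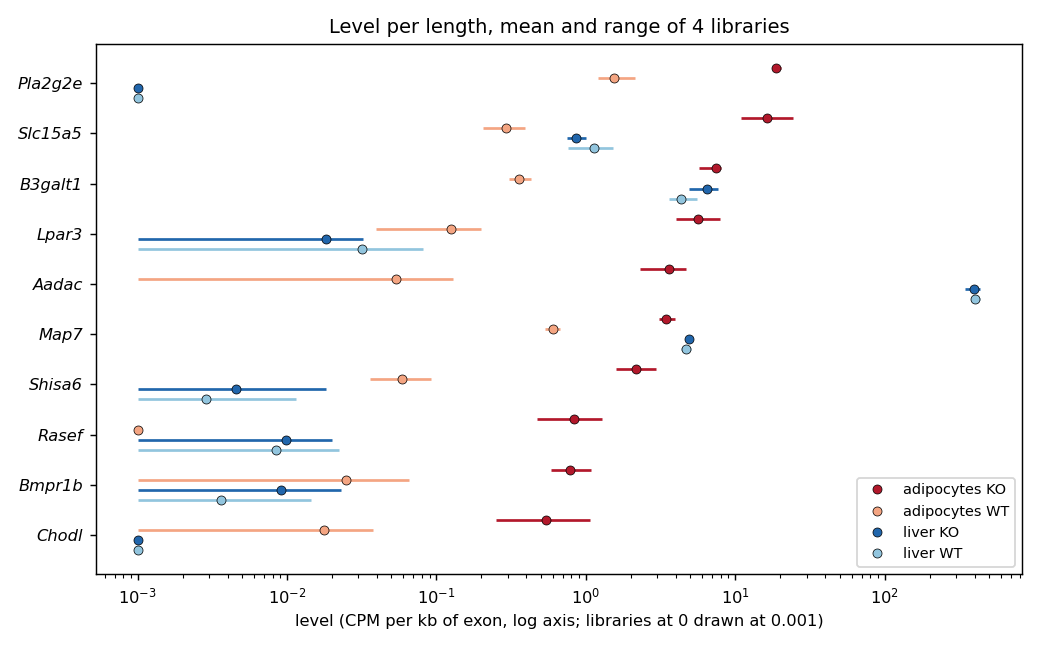
Level of each gene in CPM per kb of annotated exon, on a log axis, as the mean (point) and range (line) of the 4 libraries in each group, with knockout-labelled groups above wild-type ones and values of 0 drawn at 0.001. Pla2g2e at 18.8 and Slc15a5 at 16.4 CPM per kb lead in knockout-labelled adipocytes, and Aadac stands highest of all in liver, at 397 CPM per kb in knockout-labelled and 402 in wild-type livers.

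The 10 genes did not rank the 4 knockout-labelled mice alike. KO-1139 was the highest mouse for 4 genes and KO-1137, KO-1151 and KO-1152 for 2 each, while KO-1137 was the lowest for 5, KO-1152 for 4 and KO-1139 for 1. Set against the group mean of each gene, the median over the 10 genes was 0.767 in KO-1137, 1.17 in KO-1139, 0.973 in KO-1151 and 0.872 in KO-1152. The coefficient of variation within the group ran from 5.71% for Pla2g2e to 66.3% for Chodl, with a median of 30.3%. KO-1137 was highest for Pla2g2e and Map7 and lowest for B3galt1, Lpar3, Rasef, Bmpr1b and Chodl. At both ages the knockout-labelled levels of all 10 genes lay above the wild-type ones. This follows from the separation over all adipocyte libraries, which goes with how they were chosen, and is no separate finding. There were 2 knockout-labelled mice and 1 wild-type mouse at 70 days and 2 and 3 at 76 days. The knockout-labelled mean was higher at 76 than at 70 days for 7 of the 10 genes. That count rests on 2 mice at each age and has no share over all genes beside it. A difference with age was not tested for these genes.

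**Figure D3:**
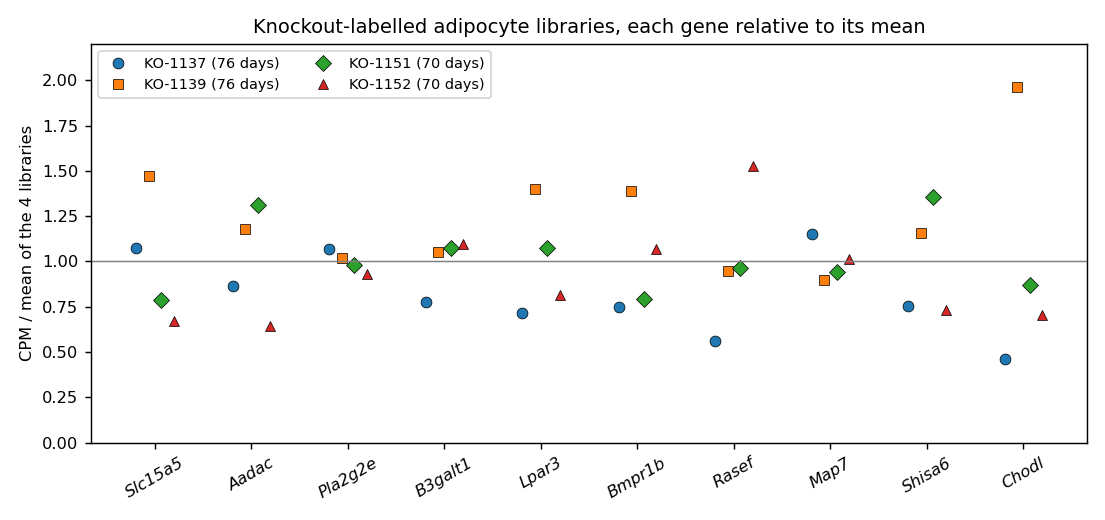
Level of each gene in each knockout-labelled adipocyte library divided by the gene's mean over the 4 libraries. The points of Pla2g2e lie close to 1, while those of Chodl spread the most, with a coefficient of variation of 66.3%.

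The sequence upstream of the transcription start is shown for 4 genes that differ in CpG content, since CpG-poor and CpG-rich promoters are regulated differently. The bases come from RefSeq (GRCm38.p6) and are the 250 before the annotated start, read 5′ to 3′ on the gene's strand, with each CpG in capitals. They lie at chr6:138079917-138080166 (minus strand) for Slc15a5, chr4:138877692-138877941 (plus) for Pla2g2e, chr16:78930698-78930947 (plus) for Chodl and chr3:146220711-146220960 (plus) for Lpar3.
Slc15a5: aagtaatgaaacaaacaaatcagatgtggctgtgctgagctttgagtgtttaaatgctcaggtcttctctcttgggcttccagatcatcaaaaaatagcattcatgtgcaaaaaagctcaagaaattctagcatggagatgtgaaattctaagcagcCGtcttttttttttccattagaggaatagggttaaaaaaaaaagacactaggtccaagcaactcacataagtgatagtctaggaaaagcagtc
Pla2g2e: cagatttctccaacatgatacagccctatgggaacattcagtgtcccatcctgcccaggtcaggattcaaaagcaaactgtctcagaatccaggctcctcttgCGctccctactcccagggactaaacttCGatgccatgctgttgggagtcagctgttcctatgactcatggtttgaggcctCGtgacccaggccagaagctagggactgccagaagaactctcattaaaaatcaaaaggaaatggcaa
Chodl: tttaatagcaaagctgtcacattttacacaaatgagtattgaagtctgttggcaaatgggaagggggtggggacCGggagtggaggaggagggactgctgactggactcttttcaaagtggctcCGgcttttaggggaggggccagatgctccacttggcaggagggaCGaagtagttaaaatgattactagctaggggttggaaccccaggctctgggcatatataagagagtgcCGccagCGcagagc
Lpar3: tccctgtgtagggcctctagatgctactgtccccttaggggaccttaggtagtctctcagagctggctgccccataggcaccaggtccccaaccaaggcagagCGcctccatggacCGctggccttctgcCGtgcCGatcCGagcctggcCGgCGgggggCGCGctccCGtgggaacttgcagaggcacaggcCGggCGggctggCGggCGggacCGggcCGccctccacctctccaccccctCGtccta
These stretches hold 1, 3, 5 and 17 CpGs, in the order printed. RefSeq windows, which run from 250 bases before to 50 bases after a start, were matched for 9 of the 10 genes (12 windows with alternative starts), and Shisa6 had none. They held between 1 CpG (Slc15a5) and 55 (Map7), beside a median of 7 over all windows of the table, and their GC content ran from 36.7% to 81.7% beside a median of 52.7%. Of the 12 windows, 8 lay below that CpG median, among them those of Pla2g2e and Slc15a5, the highest genes per kilobase, and those of Bmpr1b and Chodl, the lowest. Windows are not separate genes, since Bmpr1b alone gave 3 of the 8, in part overlapping. Bmpr1b, with 5 or 6 CpGs per window, and Chodl, with 6, lay only just below the median of 7. Lpar3, Rasef, Map7 and the upstream start of B3galt1 were the CpG-rich ones. The C/EBP-like motif TTGCNNAA and the STAT-like motif TTCNNNGAA, searched on both strands, were in 0 of the 12 windows, and in 10.8% and 8.30% of all 32851 windows. AGGTCA, a nuclear receptor motif, was in 2 of the 12 (Pla2g2e and 1 start of Bmpr1b) and in 16.3% of all windows. TATAAA was in 1 of the 12 (another start of Bmpr1b) and in 13.6% of all windows.

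In liver the 10 genes fell into clearly different levels. Aadac, Map7, B3galt1 and Slc15a5 had counts in all 8 liver libraries, Lpar3, Bmpr1b, Rasef and Shisa6 had 18, 12, 14 and 8 counts over all 8, and Pla2g2e and Chodl had none. Aadac was a major liver transcript at 518, 644, 648 and 577 CPM in knockout-labelled livers and 569, 656, 568 and 618 CPM in wild-type livers. Its liver mean over both genotypes was 112 times its mean in knockout-labelled adipocytes, a comparison of levels scaled separately in each tissue. Under the same limit, the Map7 level in liver was 1.39 times that in knockout-labelled adipocytes, while knockout-labelled adipocytes stood above liver by 1.37 times for B3galt1 and 16.5 times for Slc15a5. Hepatocyte markers were measured beside Aadac in adipocytes. The 8 of them summed to 22.0 to 35.5 CPM in knockout-labelled and 45.5 to 124 CPM in wild-type adipocytes, where Alb was called lower in knockout-labelled adipocytes and Serpina1a higher.

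None of the 10 genes was called between the genotypes in liver. The low-count filter kept 4 of them, and edgeR's quasi-likelihood test called 0 of the 4, beside 3 of 13288 genes in all (0.0226%). At an unadjusted p of 0.05 it passed 1 of the 4 genes, beside 1146 of all tested genes (8.62%), and DESeq2 and limma-voom also called 0 of the 4. The 3 called genes, named after their values were seen, were Zfp949, Kng1 and Kng2, all higher in knockout-labelled livers. Their number was 1 without KO-1137, without KO-1139 or without WT-1138, and 102 by DESeq2.

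B3galt1 came nearest, at 44.1, 36.0, 39.7 and 28.2 CPM in knockout-labelled livers and 26.7, 21.2, 31.7 and 20.7 CPM in wild-type livers. The groups overlapped, since KO-1152 lay below WT-1138. Its log2 change was 0.56 ± 0.16 (SE, adjusted p = 0.435, edgeR's quasi-likelihood test), and it stayed between 0.47 and 0.69 over 17 other settings with adjusted p between 0.111 and 0.849. The change was 0.71 within the 70-day mice and 0.59 within the 76-day mice.

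Slc15a5 was at 3.10, 2.73, 2.50 and 2.33 CPM in knockout-labelled livers and at 4.66, 2.49, 2.34 and 4.41 CPM in wild-type livers, with overlapping groups and a log2 change of -0.39 ± 0.25 (SE, adjusted p = 0.690, edgeR). Map7 was at 39.7, 38.2, 37.8 and 40.4 CPM in knockout-labelled livers and at 39.0, 40.4, 34.4 and 35.4 CPM in wild-type livers, a log2 change of 0.06 ± 0.08 (SE, adjusted p = 0.842, edgeR). Aadac changed by -0.01 ± 0.10 (SE, adjusted p = 0.976, edgeR). For these 3 genes the liver levels of the genotypes overlapped. For the other 6 genes any liver difference was not detectable at this depth.

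The genes beside the 10 were examined as the 3 listed genes with the nearest starts on each side, 60 in all, of which 31 were tested in adipocytes. Of these, 13 were higher and 3 lower in knockout-labelled adipocytes (51.6% called, beside 35.2% of all genes), with a median log2 change of 0.24 beside -0.01 over all genes. With library totals in place of TMM scaling, 8 were called higher and 5 lower. In the 76-day mice alone, 10 neighbours were called. In liver 26 were tested and edgeR called 0, with 4 at an unadjusted p of 0.05, 0 by limma-voom and 1 by DESeq2 (Sucnr1, log2 change -0.69, adjusted p = 0.0206).

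The neighbour with the largest change lay beside Aadac on chromosome 3, in a run of related genes. Gm9696, annotated as a transcribed pseudogene that starts 73.4 kb upstream of the Aadac start, was at 50.2, 82.3, 57.6 and 50.4 CPM in knockout-labelled adipocytes and at 0.0387, 0.194, 0.129 and 0.146 CPM in wild-type ones. Its log2 change was 8.91 ± 0.31 (SE, adjusted p = 7.48e-07, edgeR), and it had no count in liver. Between Gm9696 and Aadac lies Aadacl2, an AADAC-like gene, with 16, 57, 61 and 9 counts in knockout-labelled adipocytes and 0 in all 4 wild-type ones, too few to pass the filter. On the other side, Sucnr1, the succinate receptor, 56.2 kb from the Aadac start, was at 48.8 ± 5.57 CPM in knockout-labelled and 49.9 ± 9.77 CPM in wild-type adipocytes (SD, n = 4 each, adjusted p = 0.879, edgeR). How reads that match several of these copies were counted is not given, so the split among Gm9696, Aadacl2 and Aadac is uncertain.

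Pla2g2e also stands in a cluster of relatives, on chromosome 4. Pla2g2d, a secreted phospholipase A2 beside it, was at 11.7, 14.5, 15.4 and 16.6 CPM in knockout-labelled adipocytes and at 6.40, 4.89, 4.22 and 5.17 CPM in wild-type ones, a log2 change of 1.49 ± 0.16 (SE, adjusted p = 0.000255, edgeR). Pla2g5, another member of the cluster, was at 8.66, 5.93, 7.91 and 10.4 CPM in knockout-labelled and 4.57, 0.872, 3.70 and 6.46 CPM in wild-type adipocytes, overlapping groups that did not pass (1.07 ± 0.46, adjusted p = 0.0937, edgeR). Pla2g2a was listed at 0 in every library.

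Elsewhere the called neighbours were further away or changed less. Ncam2, a neural cell adhesion gene 2270 kb from the Chodl start, was at 19.5 ± 3.22 CPM in knockout-labelled and 3.90 ± 1.54 CPM in wild-type adipocytes (SD, n = 4 each), a log2 change of 2.32 ± 0.27 (SE, adjusted p = 0.000377, edgeR). Beside B3galt1, Scn7a, a sodium channel gene, rose by 1.16 ± 0.16 on the log2 scale (SE, adjusted p = 0.000959, edgeR), and beside Slc15a5, Mgst1, a microsomal glutathione transferase gene, rose by 0.99 ± 0.18 (adjusted p = 0.00354). Beside Bmpr1b the interferon-inducible GTPase genes Gbp5 and Gbp7 were lower, at log2 changes of -1.70 ± 0.18 and -1.01 ± 0.18 (SE). No tested neighbour of Lpar3, Rasef or Shisa6 was called, 7 in all. The other 9 called neighbours changed by between -1.16 and 1.58 on the log2 scale. Gm11240, which starts 0.252 kb from the Rasef start on the other strand, had 2, 2, 2 and 8 counts in knockout-labelled adipocytes and 0 in wild-type ones.

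**Figure D4:**
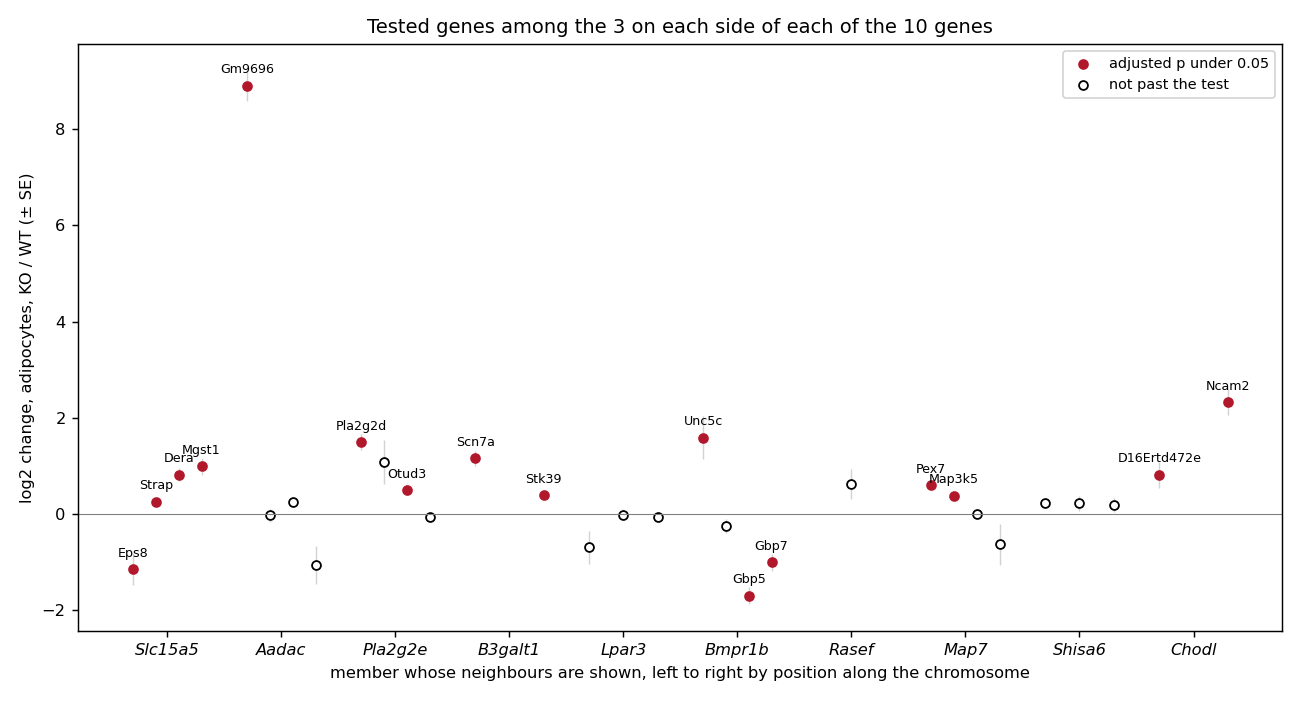
Log2 change between knockout-labelled and wild-type adipocytes, with its SE, of the 31 tested genes next to the 10 genes, in order of position around each. Filled points passed an adjusted p of 0.05, and Gm9696 beside Aadac, at 8.91, stands apart from all others.

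Relatives and pathway partners were listed by function for each of the 10 genes, 107 in all. Of the 77 tested in adipocytes, 15 were higher and 16 lower in knockout-labelled adipocytes (40.3% called, beside 35.2% of all genes), with a median log2 change of -0.12. With library totals in place of TMM scaling, 13 were called higher and 30 lower, so the split depends on the scaling. In the 76-day mice alone, 20 were called. In liver 71 were tested and edgeR called 0, with 11 at an unadjusted p of 0.05, and DESeq2 and limma-voom also called 0.

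Around Bmpr1b, 35 genes of BMP signalling were tested, of which 7 were higher and 9 lower, beside 18.0% higher and 17.1% lower of all genes. Nog, the gene of the BMP inhibitor noggin, was at 1.66 ± 1.03 CPM in knockout-labelled and 0.103 ± 0.0392 CPM in wild-type adipocytes (SD, n = 4 each), a log2 change of 3.97 ± 0.54 (SE, adjusted p = 0.000896, edgeR). Fst, the gene of the activin inhibitor follistatin, rose by 1.40 ± 0.20 and Acvr1c, a type I receptor gene active in mature fat cells, by 0.61 ± 0.11 on the log2 scale (SE). Id2, a gene that BMP signals induce, fell to 7.92 ± 1.52 CPM in knockout-labelled adipocytes, against 21.1 ± 1.57 CPM in wild-type ones (-1.41 ± 0.14, SE, adjusted p = 0.000183, edgeR). Id1, Id4, Smad6 and Bambi of the same list were also called lower, at log2 changes of -1.41, -0.73, -0.69 and -0.61 (adjusted p of 0.0101 to 0.0493, edgeR). Not all genes that BMP signals induce moved this way. Id3 was at 282 ± 15.2 CPM in knockout-labelled and 295 ± 39.1 CPM in wild-type adipocytes (SD, n = 4 each, adjusted p = 0.671, edgeR). Smad7 rose by 0.89 ± 0.18 on the log2 scale (SE, adjusted p = 0.00526, edgeR). The rest of the 9 lower calls were Bmp6, Eng, Acvrl1 and Bmp1, at log2 changes of -2.08, -1.73, -1.68 and -1.02. Smad6 and Bmp1 passed although the levels of their groups overlapped. Id1, Id3, Id4, Smad6, Smad7, Bambi, Bmp6, Eng, Acvrl1, Bmp1 and Bmpr1a were named after their values were seen. Bmpr1a, the sister receptor gene, was at 109 ± 10.1 CPM in knockout-labelled and 108 ± 18.1 CPM in wild-type adipocytes (adjusted p = 0.989, edgeR). Endothelial, mural and fibroblast markers were also lower in these libraries, with the summed levels given above, and their part in the 9 lower calls was not tested.

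Around Lpar3, 8 genes of lysophosphatidic acid signalling were tested, with 1 higher and 3 lower, beside 18.0% higher and 17.1% lower of all genes. Lpar6, another receptor gene for this lipid, fell to 33.0 ± 3.85 CPM in knockout-labelled adipocytes, against 74.6 ± 8.73 CPM in wild-type ones (-1.18 ± 0.11, SE, adjusted p = 0.000145, edgeR). Ppap2a and Ppap2b, genes of phosphatases that break the lipid down, fell by 1.19 and 0.87 on the log2 scale. Ppap2c of the same family went the other way and rose by 0.41 ± 0.10 (SE, adjusted p = 0.0131, edgeR). Enpp2, the gene of autotaxin, which makes the lipid, was at 267 ± 32.5 CPM in knockout-labelled and 346 ± 69.7 CPM in wild-type adipocytes and did not pass (adjusted p = 0.0744, edgeR). The part of the lower endothelial, mural and fibroblast markers in the 3 lower calls was not tested.

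Closer relatives of the other genes moved unevenly. With Shisa6, 1 of 3 tested relatives was called, and with Slc15a5 also 1 of 3. With Pla2g2e 2 of 5 were called and with B3galt1 2 of 7, beside 35.2% of all genes. The calls in these lists were all higher. Shisa2 was at 15.4 ± 2.75 CPM in knockout-labelled and 2.16 ± 0.512 CPM in wild-type adipocytes (SD, n = 4 each), a log2 change of 2.84 ± 0.20 (SE, adjusted p = 3.51e-05, edgeR), while no AMPA receptor subunit passed the low-count filter. Pla2g12a, a further secreted phospholipase gene, rose by 1.07 ± 0.11 and B3galt2, a galactosyltransferase gene, by 0.95 ± 0.08 on the log2 scale (SE). Slc15a4, a lysosomal peptide and histidine transporter gene, rose by 0.55 ± 0.09. Slc15a2 and Slc15a3 went the other way, at -1.09 ± 0.64 and -0.81 ± 0.50 (SE), and were not called. Shisa4 was also lower and did not pass (-1.21 ± 0.43, SE, adjusted p = 0.0511, edgeR). Layn, the 1 gene listed with Chodl, was called lower (-1.30 ± 0.45, SE, adjusted p = 0.0488, edgeR). The Layn call was lost in 10 of 17 other settings. Of the ester hydrolases listed with Aadac, 8 were tested, with Mgll (monoacylglycerol lipase, 0.41 ± 0.10) higher and Ces1f (-1.07 ± 0.22) and Nceh1 lower. The Nceh1 call was lost without any 1 of 6 libraries, all but KO-1137 and WT-1153, at adjusted p of 0.0559 to 0.132. With Map7, 6 genes of the MAP7 and kinesin-1 group were tested and 1 was called, Kif5c, a neuronal kinesin heavy chain gene, lower at -1.71 ± 0.43 (SE). The Kif5b gene, which encodes the widespread kinesin-1 heavy chain and was named after its values were seen, was at 159 ± 2.73 CPM in knockout-labelled and 157 ± 9.88 CPM in wild-type adipocytes.

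**Figure D5:**
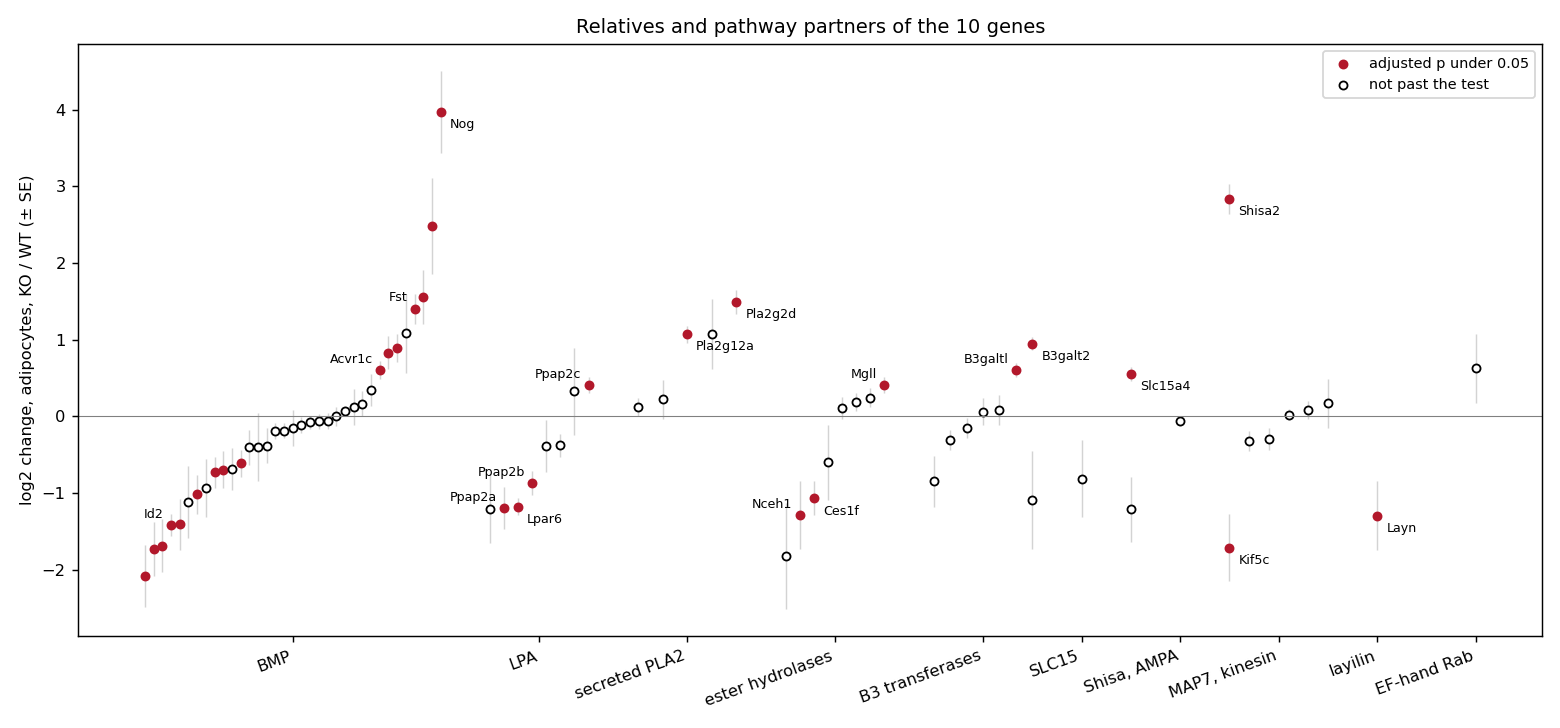
Log2 change between knockout-labelled and wild-type adipocytes, with its SE, of the 77 tested relatives and pathway partners, grouped by the gene they were listed with and sorted within each group. Filled points passed an adjusted p of 0.05, 15 above 0 and 16 below.

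With library totals in place of TMM scaling, the median log2 change of all genes in adipocytes moved by -0.19, and the calls split into 1293 higher and 3899 lower. Single calls were followed for the relatives and neighbours named by smallest p and given above with values. Among them, library totals lost the calls of Mgll (log2 change 0.22, adjusted p = 0.129, edgeR) and Ppap2c. In the 76-day mice alone, the calls of Acvr1c, Kif5c, Mgll, Mgst1, Nceh1, Ppap2b and Slc15a4 were lost with their directions kept, at adjusted p of 0.0511 to 0.224 (edgeR). The call of Ppap2c was lost there too, with its direction kept and an adjusted p of at most 0.153 in either setting (edgeR). Layn lost its call in the 76-day mice as well, at an adjusted p of at most 0.277 over its 10 lost settings (edgeR).

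The 10 epithelial markers summed to 0.433 to 0.711 CPM in knockout-labelled and 0.517 to 5.17 CPM in wild-type adipocytes. Krt5, Krt8, Krt14 and Cldn4 were at 0 in all knockout-labelled adipocyte libraries. In wild-type adipocytes Krt5 was at 0 in 3 libraries and Krt8, Krt14 and Cldn4 in 2 each. Cdh1 and Elf5 had counts in every adipocyte library. Markers of Schwann cells and nerve summed to 13.6 to 45.7 CPM in knockout-labelled and 22.7 to 67.9 CPM in wild-type adipocytes, with 2 of 5 called lower and none higher. The 6 skeletal muscle markers summed to 7.68 to 8.26 CPM in knockout-labelled and 12.6 to 33.0 CPM in wild-type adipocytes. Of these, 3 were tested, with 1 (Acta1) called lower and none higher. The part of nerve or muscle cells in the levels of Shisa6 and Chodl was not tested. None of the 10 epithelial markers passed the low-count filter in adipocytes.

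The genes most like the 10 in pattern were ranked by Pearson's r with their mean standardized log2 CPM (prior count 2) over the 16 libraries, a description in which tissue and genotype are shared by all points. Outside the 10, Alcam (r = 0.965), Fam5c (0.949), Cyp2b13 (0.949), Idh3b (0.945) and Grid1 (0.945) stood highest among 14898 genes. Alcam, a cell adhesion gene, was at 177 ± 27.2 CPM in knockout-labelled and 60.0 ± 7.39 CPM in wild-type adipocytes, and at 49.6 ± 0.823 and 54.5 ± 6.92 CPM in knockout-labelled and wild-type livers (SD, n = 4 each). Fam5c had 0.526 ± 0.00972 CPM in knockout-labelled adipocytes and none in any other group. Cyp2b13 belongs to a family of near-identical genes, so its counts are uncertain. With a prior count of 0.5, 3 of the 5 remained in the first 5, and Cyp2b13 went to rank 37 and Grid1 to rank 11. Among the 10 themselves, r ran between 0.0597 for Aadac, whose level is set by liver, and 0.973 for Slc15a5.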

How the data were processed

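Polyadenylated RNA was counted per gene in adipocytes and livers of 8 mice. The authors deposited 1 file per library, with whole-number counts for each gene symbol and no normalization. Per the submitters' processing notes, the tools were STAR 2.5.2b, featureCounts 1.5.0 and bcl2fastq 2.17, and the build was mm10. Not given in the sources used here are the gene annotation, whether counting used strand, and the handling of reads that match several places. Of the values from 1 to 20, 77.9% were even.

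Each tissue was fitted separately in R 4.3.3 with the two-sided quasi-likelihood test of edgeR 4.0.16, after TMM scaling and filtering of low counts by group (filterByExpr), with Benjamini-Hochberg adjustment over all genes tested, with a threshold of 0.05. The fit was also run on simulated data with few changed genes, balanced up and down, and the same spread for every gene. That setting is simpler than the adipocyte data, so it does not show how the fit behaves there. DESeq2 1.42.0, limma-voom (limma 3.58.1), other scalings, no filter, age, halved counts, a fit of all 16 libraries and leaving out each mouse were tried as alternatives. Depth is given as total counts, and log2 changes had a median SE of 0.138 (adipocytes) or 0.137 (liver). Between libraries of a group, chi-square per degree of freedom was 16.2 or more, so no 2 were taken for 1 library. The labels give each mouse a number, and p-values measure the spread between these mice.

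The 10 genes and all gene lists were chosen with earlier results of these data known. Of relatives and neighbours past the threshold, the rule named up to 4 per list with the smallest p. Sucnr1, Aadacl2, Gm11240, Pla2g2a, Pla2g5, Enpp2, Slc15a2, Slc15a3 and Shisa4 were added after their values were seen. Of 23420 symbols, 21777 had a place in GENCODE M21 (GRCm38), which gave coordinates, neighbours and exon lengths, and promoters are RefSeq's. No genome or protein sequence was used here.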

Additional observations from a re-analysis of the deposited data

Results flagged for a closer look

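In groups of 4 libraries, 9 of the 120 groups examined (the 10 genes, the named relatives and neighbours, and the most similar genes) held a library far from the other 3, where chance gives about 1 in 20. Among the 10 genes, B3galt1 was at 33.0 CPM in knockout-labelled adipocytes of KO-1137, below 44.7 to 46.4 CPM in the other 3. In liver, Shisa6 was at 0.136 CPM in KO-1137 and at 0.0861 CPM in WT-1153, and Bmpr1b was at 0.0861 CPM in WT-1153. Each of these levels is 4 counts, with 0 in the other 3 libraries of each group. Where the other 3 are at 0, any count lies far from them, so the rate of 1 in 20 does not apply. In knockout-labelled adipocytes of KO-1137, Eps8 was at 13.3 CPM (the other 3 at 5.39 to 6.06) and Unc5c at 1.97 CPM (the other 3 at 3.79 to 3.82). In wild-type adipocytes of WT-1135, Layn was at 1.68 CPM (the other 3 at 1.12 to 1.19), Nceh1 at 4.55 CPM (the other 3 at 2.24 to 2.59) and Cyp2b13 at 0.0387 CPM (the other 3 at 0). Of the 9, 7 lay in mice KO-1137 or WT-1135, among them Shisa6 in liver and Cyp2b13, for which the other 3 libraries were at 0.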

How the results depend on the processing

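No paired analysis was possible because mouse numbers are shared between the tissues of a mouse and never between the genotypes compared. Of the 10 genes, 0 of the 4 tested in liver were called under any of the 17 alternatives. In the 76-day mice alone, 1730 genes were called in adipocytes in place of 4849, 20 relatives in place of 31, 10 neighbours in place of 16, and 0 genes in liver in place of 3. In liver DESeq2 called 102 genes and 1 neighbour (0 with edgeR), and 5 genes were called without a low-count filter. Leaving out 1 mouse gave 1 to 3 genes in liver. The 76-day fit has fewer mice, and the cause of the other shifts was not tested. Of 34 named relatives and neighbours, 16 lost their call under at least 1 alternative, 6 of them (D16Ertd472e, Eps8, Layn, Nceh1, Strap, Unc5c) without at least 1 single library (each adipocyte library but that of KO-1137, at adjusted p of 0.0502 to 0.132), and none turned its direction. Depth limits Lpar3, Bmpr1b, Rasef, Shisa6, Pla2g2e and Chodl in liver.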
